A study of Mus musculus with 10 samples.

Results

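The genes described here are 10 transcription factors of the naive pluripotency network of the mouse: Pou5f1 (Oct4), Sox2, Nanog, Esrrb, Klf2, Klf4, Klf5, Tfcp2l1, Tbx3 and Zfp42 (Rex1). They were chosen by name and not by a cut on their values, but with earlier results of these data known. All 10 were found once each among the 25965 features of the deposited table. RNA-seq was performed on mouse embryonic stem cells (mESCs), which are cultured cells that keep the ability of the early embryo to form every tissue of the body. The labels give male cells of the C57/Bl6 strain. By the study's account, they came from 2 lines that were each derived in Keniry2022 conditions and divided at passage 0 (p0). Parts of each line were then kept for 10 or 20 passages (p10 and p20) by Keniry2022 or by Mulas2019. All groups shared the 2i medium, which carries inhibitors of the kinases MEK and GSK3 and, in the study, the cytokine LIF, so no group was without these signals. Keniry2022, labelled New or Off, grew cells in suspension in plates not treated for tissue culture, with daily passage, higher plating density and larger volumes of medium. Mulas2019, labelled Old or On, grew cells attached to gelatin with less frequent passage, so that p20 Keniry2022 and p10 Mulas2019 had spent the same number of days in culture. Each of the 5 groups (p0, p10 and p20 Keniry2022, p10 and p20 Mulas2019) held 2 libraries, 1 per line, and these lines are the only replication behind the tests. The 4 libraries of a method are p10 and p20 harvests of the same 2 lines, so p-values measure the spread between these libraries.

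Naive mESCs are held in their state by a small set of transcription factors that bind each other's enhancers and sustain one another's expression. Pou5f1 and Sox2 bind DNA as a pair and are needed in all pluripotent cells, whereas Nanog, Esrrb, Tfcp2l1, Tbx3 and the Kruppel-like factors Klf2, Klf4 and Klf5 mark and stabilise the naive state, where LIF acts through Stat3 on Klf4 and Tfcp2l1, inhibition of GSK3 relieves repression of Esrrb, and inhibition of MEK sustains Nanog and Klf2. Zfp42 is a zinc finger protein used as a reporter of the naive state. The comparisons below ask whether the level of these genes differed between the methods, whether that depended on passage, and how far each method lay from the p0 cells.

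Promoters are shown for 4 members, chosen by their differences on the deposited scale. On that scale Pou5f1, Nanog and Zfp42 were lower together in Mulas2019 libraries than at p0. Klf4 differed between the methods in the opposite direction to these 3. After quantile normalisation, given below, only Pou5f1 of the 3 was called lower than p0. RefSeq windows on the GRCm38.p6 build were matched by symbol for 8 of the 10 members, and each holds 250 bases before the start site and 50 from it onward. The 4 windows lie at chr17:35505782-35506081 (Pou5f1, plus strand), chr6:122707239-122707538 (Nanog, plus strand), chr8:43306960-43307259 (Zfp42, minus strand) and chr4:55532426-55532725 (Klf4, minus strand). They are written 5′ to 3′ along the gene in lower case, and capitals mark matches, on either strand, to the searched motifs.
Pou5f1: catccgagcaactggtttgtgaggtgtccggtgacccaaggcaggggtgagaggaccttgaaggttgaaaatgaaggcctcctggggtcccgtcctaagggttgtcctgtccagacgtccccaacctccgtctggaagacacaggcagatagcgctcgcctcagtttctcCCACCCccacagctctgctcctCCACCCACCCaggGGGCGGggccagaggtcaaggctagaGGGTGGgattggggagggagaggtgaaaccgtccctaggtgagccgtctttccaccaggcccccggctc
Nanog: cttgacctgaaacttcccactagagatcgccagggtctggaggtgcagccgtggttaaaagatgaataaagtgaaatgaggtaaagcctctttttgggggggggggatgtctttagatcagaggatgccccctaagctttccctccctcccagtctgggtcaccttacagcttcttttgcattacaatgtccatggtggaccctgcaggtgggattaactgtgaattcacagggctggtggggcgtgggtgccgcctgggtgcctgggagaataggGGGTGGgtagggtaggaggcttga
Zfp42: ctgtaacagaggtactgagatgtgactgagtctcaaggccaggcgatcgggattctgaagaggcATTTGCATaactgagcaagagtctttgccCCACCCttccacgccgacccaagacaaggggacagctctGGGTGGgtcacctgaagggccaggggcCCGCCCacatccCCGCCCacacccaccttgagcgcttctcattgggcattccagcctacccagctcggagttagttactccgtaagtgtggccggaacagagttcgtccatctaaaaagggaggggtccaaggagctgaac
Klf4: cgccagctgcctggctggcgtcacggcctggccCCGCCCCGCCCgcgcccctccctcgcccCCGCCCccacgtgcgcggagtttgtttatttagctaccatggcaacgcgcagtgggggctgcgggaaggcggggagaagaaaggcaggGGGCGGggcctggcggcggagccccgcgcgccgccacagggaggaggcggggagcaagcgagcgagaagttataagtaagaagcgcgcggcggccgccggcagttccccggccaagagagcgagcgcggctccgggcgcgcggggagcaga
The searched motifs were the octamer bound by Pou5f1 (ATGCAAAT), a Sox motif (CATTGTT), the CACCC core bound by Kruppel-like factors (CCACCC), the GC box (CCGCCC), the Esrrb motif (AAGGTCA) and the Stat motif (TTCNNNGAA). Matches that share bases, as a pair of CCACCC in Pou5f1 and a pair of CCGCCC in Klf4 do, were each counted, and matches to CCACCC and CCGCCC can also overlap at their ends. Only exact matches to these letters were counted, so a window without a match can still hold a variant of the site. In the Pou5f1 window CCACCC occurred 4 times on either strand and CCGCCC once. The Nanog window held a single CCACCC, beginning at position 26 from the start site. The Zfp42 window held the only octamer among the 8 windows, beginning at position -186 from the start site, beside matches to CCACCC and CCGCCC. The Klf4 window held 4 matches to CCGCCC and no match to the other motifs. Over the 8 member windows the octamer was found in 1, CCACCC in 5, CCGCCC in 5, the Stat motif in 1 (Esrrb), and the Sox and Esrrb motifs in 0. Among all 32851 promoter windows of this length the octamer was found in 1.7%, the Sox motif in 3.8%, CCACCC in 31.5%, CCGCCC in 35.7%, the Esrrb motif in 4.7% and the Stat motif in 8.3%.

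Values are log2 RPKM, which is reads scaled to the length of the exons and the total of the library (RPKM) on the log2 scale, so levels can be compared between genes. Library totals worked out from the table ranged from 24053996 to 30236822 reads. Every member was well covered in each library, with 2144 reads (Zfp42) as the lowest and 37512 (Tfcp2l1) as the highest single count, so the counting error was at most 0.0312 on the log2 scale and the spread between libraries set the precision. Intervals and errors on reads cover counting error only. The p0 replicate 1 library stood apart, since the SD over features of the log2 difference between replicates was 0.61 in the p0 pair and 0.23 to 0.27 in the other 4 pairs. Features of under 1 kb of exon had a median difference of 0.54 between p0 replicate 1 and p0 replicate 2, and features of over 5 kb a median difference of -0.34. Although all libraries are labelled male, the summed reads of 4 Y-linked genes were 13 to 132 in 1 library of each group and 4578 to 8140 in the other. The library with few such reads was replicate 1 in every group except p20 Keniry2022, where it was replicate 2. By the study's account, a line had lost its Y chromosome while it was being derived, ahead of the comparison of methods.

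As a check of the label, the 10 members together summed to 1423 to 1824 RPKM in the libraries, and 6 primitive endoderm markers to 1.63 to 2.59, 6 two-cell-like markers to 2.26 to 7.50 and 4 fibroblast markers to 0.34 to 1.01. Of the 16 genes of formative and primed cells, only 9 exceeded a log2 RPKM of 0 in any library, with Etv5 the highest at up to 6.47. The sum of the 16 was not near absent, at 187 to 200 RPKM at p0, 215 to 234 under Keniry2022 and 169 to 197 under Mulas2019. It thus says little about the formative and primed state as a whole. Of 7 trophectoderm markers only Eomes, Tfap2c and Krt18 exceeded a log2 RPKM of 0 in any library, and Cdx2, the defining factor of that lineage, chosen for mention after its values were seen, had 2 to 30 reads per library. The summed trophectoderm markers lay at 22.6 to 26.0 RPKM at p0, 24.2 to 28.2 under Keniry2022 and 30.2 to 36.8 under Mulas2019. This sum was thus highest in the Mulas2019 libraries, and its part in the differences between the methods below was not tested. It was mostly Tfap2c, with log2 RPKM values of 4.46 and 4.21 at p0. Tfap2c lay at 4.31 to 4.63 under Keniry2022 and at 4.57 to 5.01 under Mulas2019. No other trophectoderm marker exceeded 1.58 (Eomes) in any library, so the sum says little about the lineage as a whole. In bulk RNA, fewer cells that express a gene and less RNA of that gene per cell cannot be told apart.

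All 10 members were abundant transcripts, with mean levels between the 91.8th and 99.8th percentile of all features. By mean level over the 10 libraries the order was Nanog (8.84), Pou5f1 (8.63), Sox2 (7.65), Tfcp2l1 (6.86), Klf2 (6.51), Esrrb (6.50), Klf5 (6.06), Zfp42 (5.78), Klf4 (5.56) and Tbx3 (4.93). Neighbours in this order were separated without overlap only between Pou5f1 and Sox2, between Sox2 and Tfcp2l1 and between Klf4 and Tbx3. Nanog exceeded Pou5f1 in 9 of 10 libraries, the exception being p0 replicate 1, and Klf2 exceeded Esrrb in 4 of 10. Within libraries, Esrrb exceeded Klf5 in 10 of 10, Tfcp2l1 exceeded Klf2 in 9, Klf5 exceeded Zfp42 in 9 and Zfp42 exceeded Klf4 in 6.

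**Figure D1:**
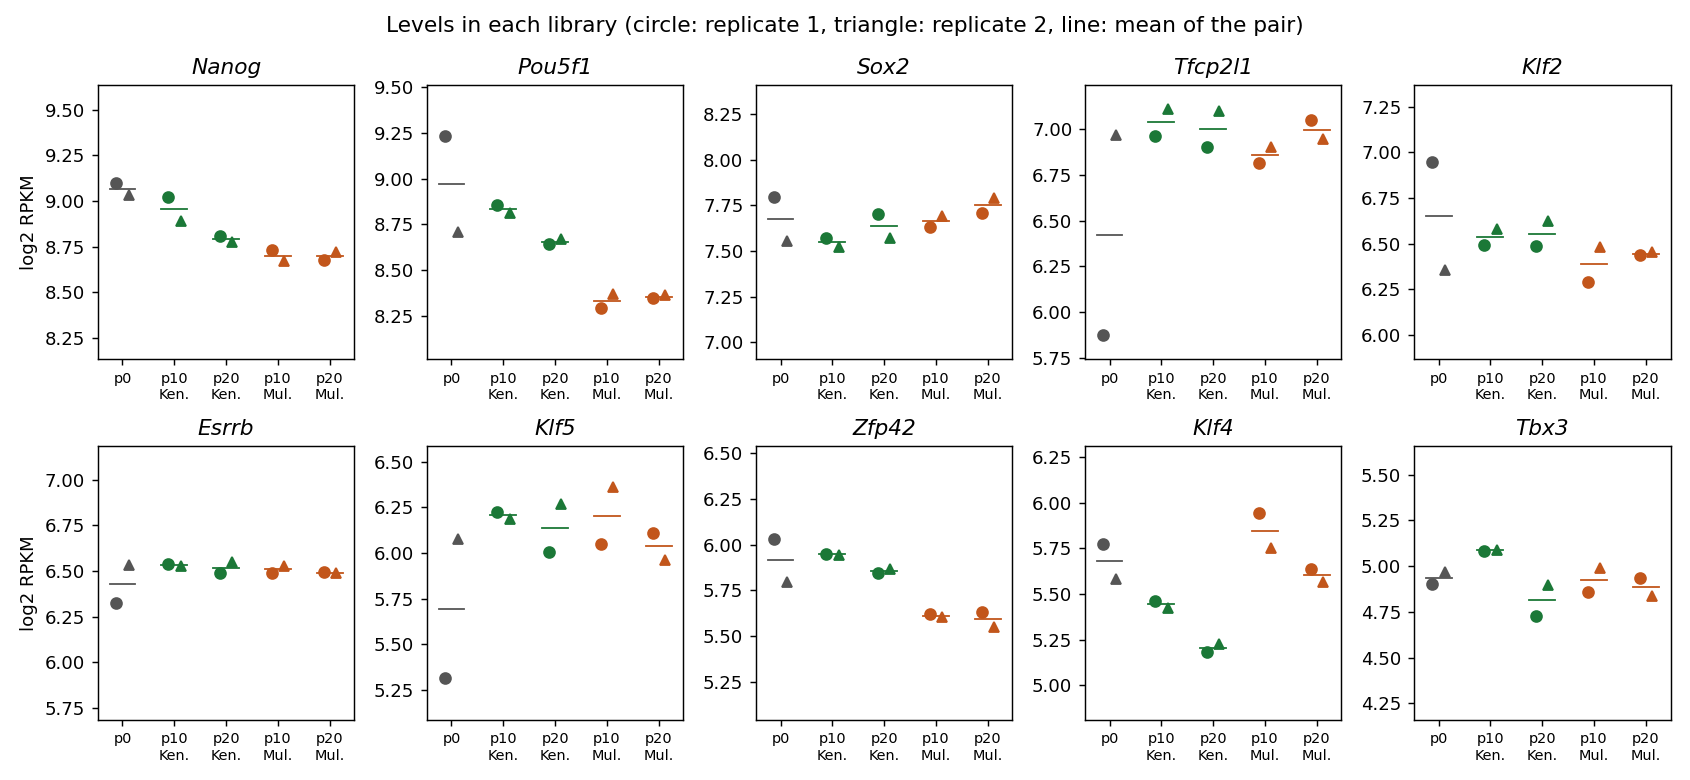
Level of each member in each library (y axis, log2 RPKM, each panel spanning 1.5 log2 units) by group (x axis, Ken. for Keniry2022 and Mul. for Mulas2019), with circles for replicate 1, triangles for replicate 2 and lines for the mean of the pair. Pou5f1 and Zfp42 are lower in all 4 Mulas2019 libraries than in all 4 Keniry2022 libraries, Klf4 is higher, and p0 replicate 1 lies far below the other libraries for Tfcp2l1 and Klf5.

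Pou5f1 (chr17:35506037-35510776 in the table, mm10 build, plus strand), the POU factor at the centre of the network, had log2 RPKM values of 9.23 and 8.71 at p0. It measured 8.85 and 8.81 at p10 Keniry2022, 8.64 and 8.67 at p20 Keniry2022, 8.29 and 8.37 at p10 Mulas2019, and 8.35 and 8.36 at p20 Mulas2019. The 4 Mulas2019 libraries were the lowest of all 10, with no overlap with either of the other conditions. Its exons share 317 bases with the antisense feature Gm19553, which lay at 7.94 to 8.91, and because the strand setting of the counting is not given, reads in the shared part cannot be assigned to either gene with confidence.

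Sox2 (chr3:34650005-34652461, plus strand), the HMG-box partner of Pou5f1, gave 7.80 and 7.56 at p0, 7.57 and 7.52 at p10 Keniry2022, and 7.70 and 7.57 at p20 Keniry2022. Under Mulas2019 it gave 7.63 and 7.69 at p10 and 7.71 and 7.79 at p20. All 10 values lay within 0.27 log2 units, and the methods overlapped. The Sox2 gene lies within the span of the non-coding gene Sox2ot, which shares no exon base with it and stayed at -3.39 to -2.03.

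Nanog (chr6:122707489-122714633, plus strand), the homeobox factor that protects cells from leaving self-renewal, was highest at p0, with 9.10 and 9.04. It measured 9.02 and 8.89 at p10 Keniry2022 and 8.81 and 8.78 at p20 Keniry2022, against 8.73 and 8.67 at p10 Mulas2019 and 8.68 and 8.72 at p20 Mulas2019. The lowest Keniry2022 library (8.78) lay just above the highest Mulas2019 library (8.73), so the methods did not overlap but nearly touched.

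Zfp42 (chr8:43295068-43307009, minus strand), the reporter of the naive state, gave 6.03 and 5.79 at p0, 5.95 and 5.94 at p10 Keniry2022, and 5.84 and 5.87 at p20 Keniry2022. Under Mulas2019 it gave 5.62 and 5.60 at p10 and 5.63 and 5.55 at p20. Its pattern was that of Pou5f1 on a lower level, with the 4 Mulas2019 libraries below the other 6.

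The orphan nuclear receptor Esrrb (chr12:86361117-86521628, plus strand) had 6.32 and 6.53 at p0 and 6.49 to 6.55 in the 8 later libraries. It was the steadiest of the members, with an SD of 0.06 over all 10 libraries. Tbx3 (chr5:119670669-119684724, plus strand), a T-box repressor, gave 4.90 and 4.97 at p0, 5.08 and 5.09 at p10 Keniry2022, and 4.73 and 4.90 at p20 Keniry2022. Under Mulas2019 Tbx3 gave 4.86 and 4.99 at p10 and 4.93 and 4.84 at p20, all within the range of the Keniry2022 libraries. Tfcp2l1 (chr1:118627945-118685167, plus strand), a CP2-family factor induced by LIF, had 5.87 in p0 replicate 1 and 6.97 in p0 replicate 2. In the 8 later libraries Tfcp2l1 lay between 6.81 and 7.11, with overlap between the methods.

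The Kruppel-like factors are zinc finger proteins with partly interchangeable roles in the naive network, but their levels did not move alike. Klf2 (chr8:72319033-72321656, plus strand) gave 6.95 and 6.35 at p0, 6.49 and 6.58 at p10 Keniry2022, 6.49 and 6.62 at p20 Keniry2022, 6.29 and 6.48 at p10 Mulas2019, and 6.44 and 6.45 at p20 Mulas2019. The lowest Keniry2022 and the highest Mulas2019 library of Klf2 were 6.487 and 6.483, almost equal. Klf4 (chr4:55527143-55532466, minus strand) gave 5.78 and 5.58 at p0, 5.46 and 5.42 at p10 Keniry2022, 5.18 and 5.23 at p20 Keniry2022, 5.94 and 5.75 at p10 Mulas2019, and 5.64 and 5.57 at p20 Mulas2019. All 4 Keniry2022 libraries lay below the other 6, and p20 lay below p10 within each method. Klf5 (chr14:99298691-99313405, plus strand) had 5.32 in p0 replicate 1, 6.08 in p0 replicate 2 and 5.96 to 6.36 in the 8 later libraries, where the methods overlapped.

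The methods were compared first with p10 and p20 of each method pooled (4 libraries against 4), as the authors pooled them. Pou5f1, Zfp42, Nanog and Klf2 were higher under Keniry2022 and Klf4 was higher under Mulas2019, at an adjusted p below 0.05 in limma's moderated test across all features. These 5 of 10 members stand against a background of 51.5% of the 11654 features tested, of which 25.9% were higher and 25.5% lower under Keniry2022, so the share of members that passed was close to that of features in general. The same 5 members were those whose 4 Keniry2022 and 4 Mulas2019 values did not overlap, which rests on the same values as the test. The share of all features without such overlap was not counted. The median difference over the members was 0.07, against -0.003 over all features.

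Pou5f1 was 1.32-fold higher under Keniry2022, from 8.34 ± 0.03 under Mulas2019 to 8.74 ± 0.10 (log2 RPKM, SD, n = 4), a difference of 0.40 with an SE of 0.05 (limma adjusted p = 0.000192). Zfp42 was 1.23-fold higher under Keniry2022, from 5.60 ± 0.04 to 5.90 ± 0.05 (SD, n = 4; difference 0.30, SE 0.0371, limma adjusted p = 0.000188). Both of these kept their direction and their call in all 18 alternative settings. Klf4 was 1.32-fold lower under Keniry2022, from 5.72 ± 0.16 under Mulas2019 to 5.32 ± 0.14 (SD, n = 4; difference -0.40, SE 0.087, limma adjusted p = 0.00365), also in all 18 settings.

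Nanog was 1.13-fold higher under Keniry2022, from 8.70 ± 0.03 to 8.88 ± 0.11 (SD, n = 4), a difference of 0.18 with an SE of 0.0512 (limma adjusted p = 0.0162), which was 0.03 after quantile normalisation (adjusted p = 0.658). Klf2 differed by 0.13 (SE 0.0492, limma adjusted p = 0.0492), and its call was lost in 10 of 18 alternatives, with a difference of 0.0039 after quantile normalisation. These differences can be read beside those of features of like abundance, since features with a mean log2 RPKM above 8 had a median difference of 0.17, those between 6 and 8 one of 0.16 and those between 4 and 6 one of 0.09. The difference of Nanog was therefore that of the median feature at its level, and that of Klf2 was smaller. Features of 1 to 2 kb of exon, the class of Klf2 (1847 bases) and Zfp42 (1800 bases), had a median difference of 0.12, and features of 2 to 3 kb, the class of Pou5f1 (2256 bases) and Nanog (2242 bases), one of 0.05. The part of abundance and length in the members' differences was not tested.

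The other 5 members did not pass the test. Sox2 differed by -0.11 (95% confidence interval -0.22 to -0.0085, limma adjusted p = 0.0671), but it was called lower under Keniry2022 in 5 of 18 alternatives. These were quantile normalisation (-0.25, adjusted p = 0.00288), library weights (adjusted p = 0.02), passage as a term (adjusted p = 0.0304), and leaving out p20 Keniry2022 replicate 1 (adjusted p = 0.0176) or p10 Mulas2019 replicate 1 (adjusted p = 0.0374). Esrrb differed by 0.02 (interval -0.04 to 0.09, adjusted p = 0.501), a direction that turned after quantile normalisation, to -0.10 (adjusted p = 0.024). The interval reached from -0.13 to 0.24 for Klf5, from -0.04 to 0.23 for Tfcp2l1 and from -0.13 to 0.22 for Tbx3, and quantile normalisation turned the sign of all 3 without a call. With that normalisation 2 members were higher (Pou5f1 and Zfp42) and 3 lower (Klf4, Sox2 and Esrrb), whereas median centring left 4 higher and 1 lower. Of all 11654 features, 5361 were called after quantile normalisation (2687 higher, 2674 lower) and 5978 after median centring (3189 higher, 2789 lower).

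**Figure D2:**
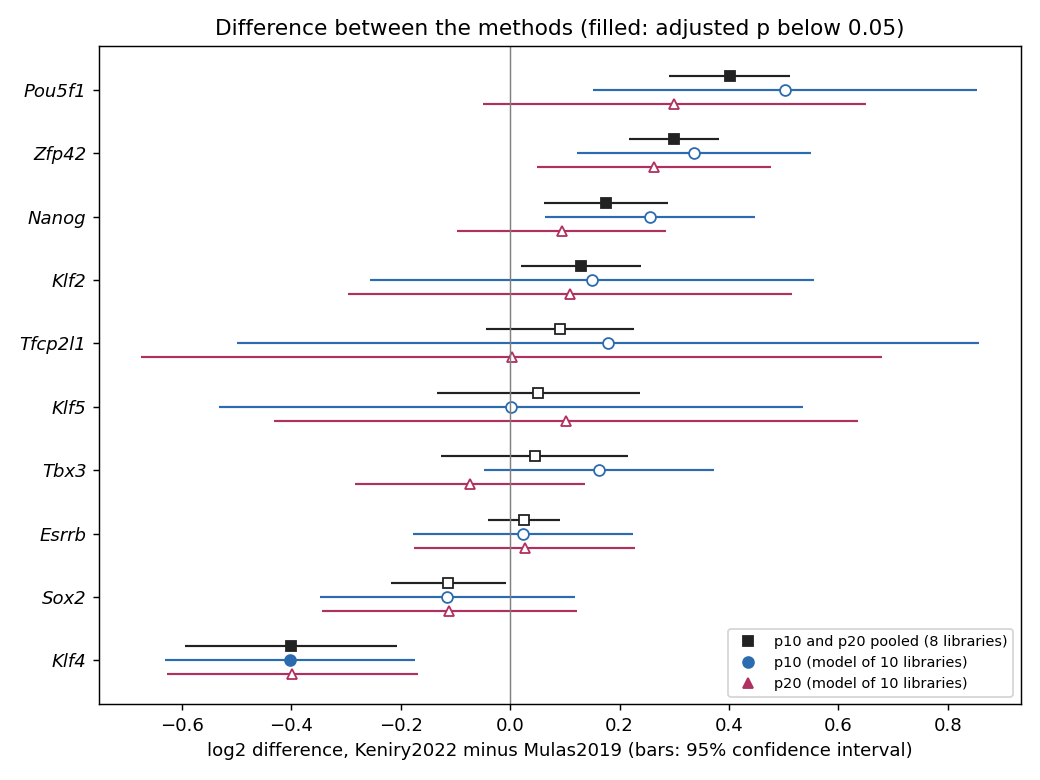
Difference between the methods for each member (x axis, log2 difference, Keniry2022 minus Mulas2019) with 95% confidence intervals as bars, for p10 and p20 pooled (squares), p10 (circles) and p20 (triangles). Filled symbols passed an adjusted p of 0.05, and the wider bars of p10 and p20 come from the model of 10 libraries, which includes the p0 pair.

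Within the libraries with many Y-linked reads, the difference between the methods was 0.36 for Pou5f1, 0.32 for Zfp42, 0.15 for Nanog and -0.36 for Klf4 (2 libraries per method, no test). Within the libraries with few such reads it was 0.44 for Pou5f1, 0.28 for Zfp42, 0.20 for Nanog and -0.44 for Klf4. For Klf2 the 2 values were 0.07 and 0.19. The direction of these members was fixed in advance, because their values did not overlap between the methods, so only the size could differ. Of the other members, Sox2 (-0.13 and -0.10) and Tfcp2l1 (0.08 and 0.10) kept their direction. The direction turned for Klf5 (-0.06 and 0.17), Tbx3 (-0.0035 and 0.09) and Esrrb (-0.0003 and 0.05).

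At p10 alone, in a model of all 10 libraries, Klf4 was the only member called, with -0.40 (limma adjusted p = 0.0466), where 8.53% of 11561 features passed. That call was lost in 12 of 19 alternatives, with a replicate block (adjusted p = 0.0505), median centring (0.0605), the filter at log2 above 2 (0.0518), no filter (0.053) and without any single one of the 8 later libraries (0.0919 to 0.296). Pou5f1 stood at 0.50 (SE 0.1516, adjusted p = 0.0804), Zfp42 at 0.34 (adjusted p = 0.0639) and Nanog at 0.26 (adjusted p = 0.0974). At p20 alone 0 members were called, where 2.15% of features passed, with Klf4 at -0.40 (adjusted p = 0.0836), Pou5f1 at 0.30 (adjusted p = 0.331) and Zfp42 at 0.26 (adjusted p = 0.175). These counts depended on the p0 pair, whose spread enters the shared error.

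Without the p0 libraries, 48.3% of 11654 features passed at p10 and 36.7% at p20. In that model Pou5f1 (adjusted p = 0.00013), Zfp42 (0.000571), Nanog (0.00424) and Klf4 (0.00154) were called at p10, with the same differences as above. At p20 Pou5f1 (0.00155), Zfp42 (0.00286) and Klf4 (0.00298) were called, while Nanog stood at 0.09 (adjusted p = 0.178). Between groups matched in days, p20 Keniry2022 and p10 Mulas2019, Klf4 was called at -0.64 (SE 0.0988, limma adjusted p = 0.018), a 1.56-fold lower level, where 6.43% of features passed. Without p0, where 43.4% passed, Pou5f1 (0.32), Zfp42 (0.24) and Klf4 (-0.64) were called in the comparison matched in days.

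The difference between the methods was not shown to depend on passage for any member. In the test of that dependence 0 members and 0% of features were called in limma. Before adjustment 405 features, none of them a member, had a p below 0.05. Without p0, Pou5f1 had a change of -0.20 between its p10 and p20 differences (unadjusted p = 0.00684, adjusted p = 0.168) and Tbx3 one of -0.24 (unadjusted p = 0.0401, adjusted p = 0.294), where 15.8% of features had an unadjusted p below 0.05. The drift from p10 to p20, averaged over the methods, likewise gave 0 members and 0% of features in limma, while 676 features had a p below 0.05 before adjustment. Klf4 values at p20 lay below those at p10 without overlap within each method, with an average difference of -0.24 that did not pass (unadjusted p = 0.00915, adjusted p = 0.67; without p0, adjusted p = 0.0526). With library weights, where 360 features were called, this drift of Klf4 was called (adjusted p = 0.0261). Tbx3 stood at -0.16 (unadjusted p = 0.0427, adjusted p = 0.812).

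Differences between 2 members within a library are little affected by scaling between libraries and were compared by an exact two-sided permutation test over the 8 libraries (70 splits, 4 pairs, smallest possible p 0.0286). Sox2 lay below Pou5f1 by 1.15 ± 0.17 under Keniry2022 and by 0.64 ± 0.05 under Mulas2019 (log2, SD, n = 4 each). The 2 methods did not overlap in this difference (exact p = 0.0286, Benjamini-Hochberg adjusted p = 0.0571). Klf4 lay below Klf2 by 1.22 ± 0.16 under Keniry2022 and by 0.69 ± 0.24 under Mulas2019 (exact p = 0.0286, adjusted p = 0.0571), also without overlap. Klf5 minus Klf2 differed between the methods by -0.08 (exact p = 0.371) and Nanog minus Esrrb by 0.15 (exact p = 0.0857, adjusted p = 0.114). After correction none of the 4 pairs passed 0.05.

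**Figure D3:**
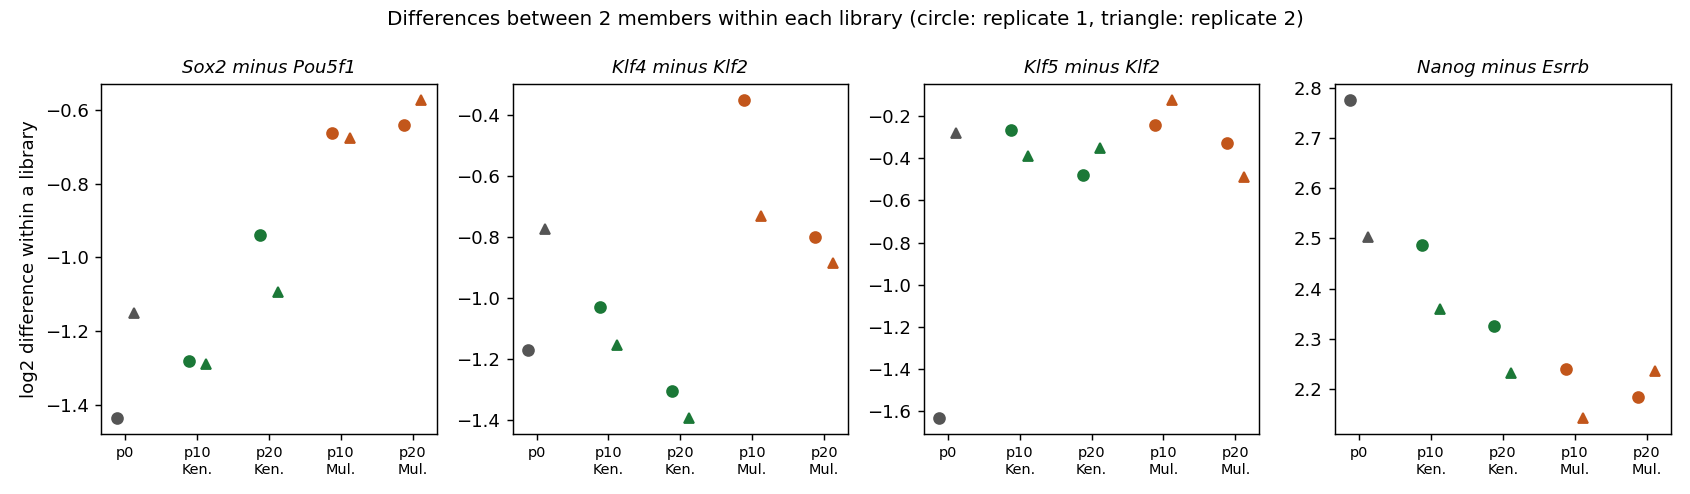
Log2 difference between 2 members within each library (y axis) by group (x axis, Ken. for Keniry2022 and Mul. for Mulas2019), with circles for replicate 1 and triangles for replicate 2. Sox2 minus Pou5f1 and Klf4 minus Klf2 are higher in all 4 Mulas2019 libraries than in all 4 Keniry2022 libraries, and p0 replicate 1 lies at -1.63 for Klf5 minus Klf2, far from the other 9.

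Each method was then compared with the p0 cells, which are shared by both comparisons. In Mulas2019 libraries Pou5f1 was 1.54-fold lower than at p0 (-0.63, SE 0.1313, limma adjusted p = 0.0115), where 44.1% of features passed. With library weights, where 0 features were called, the call of Pou5f1 was lost (adjusted p = 0.124). Nanog was lower by 1.29-fold (-0.37, adjusted p = 0.00969), a change that turned to 0.11 after quantile normalisation (adjusted p = 0.306). The call of Nanog was also lost with library weights. Zfp42 was lower by 1.24-fold (-0.31, adjusted p = 0.0197), with -0.09 after quantile normalisation (adjusted p = 0.264). The call of Zfp42 was lost in 6 of 18 alternatives, also with library weights (adjusted p = 0.262) and without any single one of the 4 Mulas2019 libraries (adjusted p = 0.0502 to 0.0601). After quantile normalisation Sox2 (0.39), Esrrb (0.34) and Klf4 (0.26) were called higher than p0 in their place, and Pou5f1 (-0.18, adjusted p = 0.0316) was the only member called lower. On that scale 4865 of all 11561 features were called (2400 higher, 2465 lower). In Keniry2022 libraries 0 members were called in limma, where 0.727% of features passed, and Klf4 (-0.36, adjusted p = 0.0724) and Nanog (-0.19, adjusted p = 0.114) had the smallest p. Unadjusted, 4 members lay below 0.05 in the Keniry2022 comparison (Klf4, Nanog, Klf5 and Tfcp2l1), as did 34.8% of features.

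Which p0 library was used decided much of this distance. Against p0 replicate 2 alone, with the lone library assumed to vary like the other groups, 0 members were called under Keniry2022, where 7.25% of features passed, and 3 of 10 under Mulas2019, where 42.6% passed. These 3 were Pou5f1 (-0.36, limma adjusted p = 0.000867), Nanog (-0.33, adjusted p = 0.00269) and Zfp42 (-0.19, adjusted p = 0.0114). Against p0 replicate 1 alone, 9 of 10 members were called under Keniry2022, where 68.4% of features passed, and 7 of 10 under Mulas2019, where 74% passed, the latter close to the share of features. Against that library, Pou5f1 (-0.89), Nanog (-0.40) and Zfp42 (-0.43) were again lower under Mulas2019. On the deposited scale every Mulas2019 value of Pou5f1, Nanog and Zfp42 lay below both p0 values. Their direction against either p0 library was therefore fixed in advance to be the same. For Pou5f1 under Keniry2022 it was not, with 0.04 against p0 replicate 2 and -0.49 against p0 replicate 1.

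**Figure D4:**
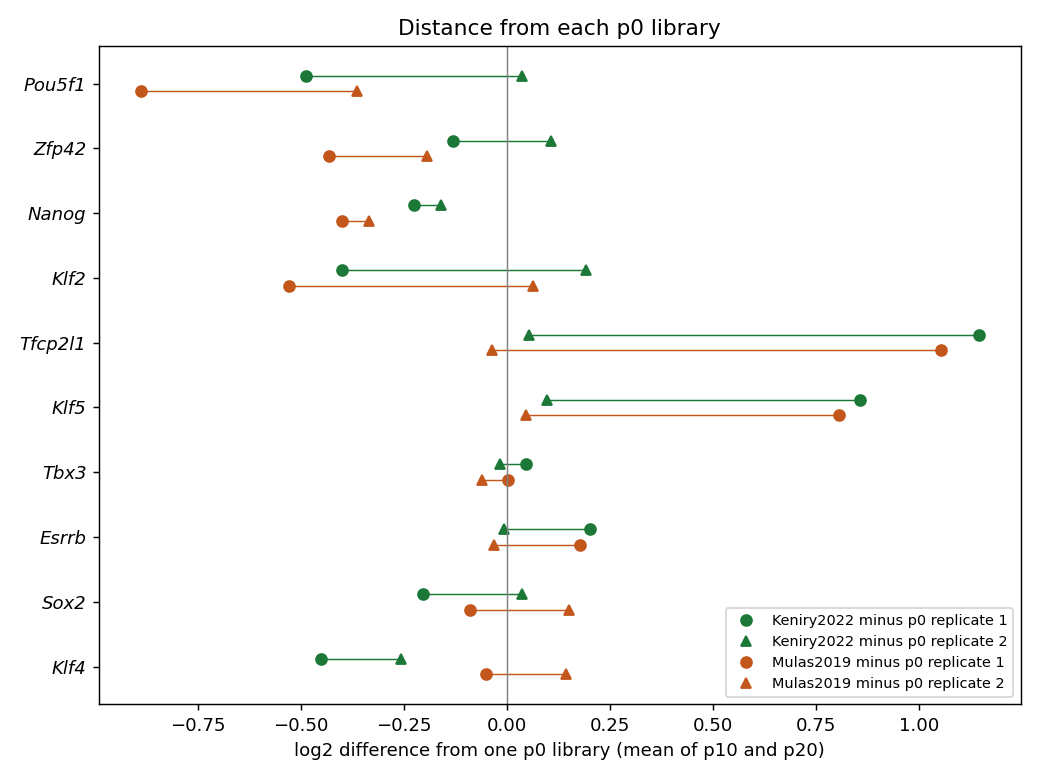
Distance of each member from each p0 library (x axis, log2 difference of the mean of p10 and p20), with circles against p0 replicate 1 and triangles against p0 replicate 2. Pou5f1, Zfp42 and Nanog under Mulas2019 lie below 0 against both, and Tfcp2l1 and Klf5 lie near 0 against p0 replicate 2 but at 0.80 or more against p0 replicate 1.

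The 2 p0 libraries differed most for Tfcp2l1, which was lower in replicate 1 by 1.09 on the log2 scale, and Klf5, which was lower by 0.76. Klf2 was higher in replicate 1 by 0.59 and Pou5f1 by 0.52, whereas Nanog differed by 0.07. In the other 4 groups no member differed between replicates by more than 0.31. The 4 members with over 5 kb of exon (Tfcp2l1, Esrrb, Tbx3 and Klf5) were all lower in p0 replicate 1, and the 6 shorter members were all higher. Features in general followed the same order, with median differences of 0.45 at 1 to 2 kb, 0.29 at 2 to 3 kb, 0.05 at 3 to 5 kb and -0.34 above 5 kb. The part of length in the members' distance from p0 was not tested.

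**Figure D5:**
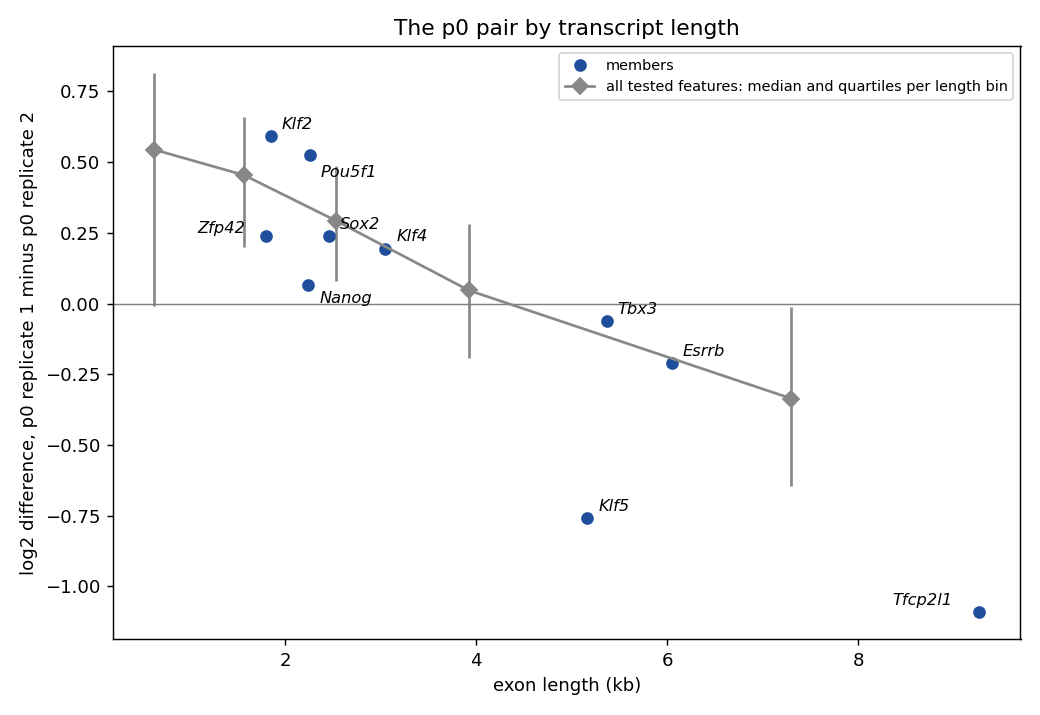
Log2 difference between p0 replicate 1 and p0 replicate 2 (y axis) against exon length (x axis, kb), with members as points and, for all tested features, the median of each length class as diamonds with bars to the quartiles. The 6 members of up to 3049 bases lie above 0 and the 4 above 5 kb below 0, with Klf5 and Tfcp2l1 below the lower quartile of features of over 5 kb.

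For the 3 members with the largest SD over the libraries, the features with the most similar profile were found by the root mean square difference of values centred on their own mean (10 libraries). For Tfcp2l1 (SD 0.36) these were Ap1g1 (0.0497), Aff1 (0.0501) and Flna (0.0577), each lowest in p0 replicate 1. For Pou5f1 (SD 0.30) the closest was its antisense neighbour Gm19553 (0.0198), followed by Tmem55b (0.0292) and Wibg (0.0465). Gm19553 shares 317 of its 494 exon bases with Pou5f1, so the same reads may enter both profiles. For Klf5 (SD 0.29) they were Rbm15 (0.0826), Asxl1 (0.0876) and Urb2 (0.0908). These likenesses rest largely on p0 replicate 1, which lies outside the range of the other 9 libraries for each of the 9 features named.

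Beyond the 10 members, 20 other factors tied to the network were examined, all of them tested. The counts of these and of the lists that follow stand against the 51.5% of all features called, 25.9% higher and 25.5% lower. For every list below other than the 3 trophectoderm markers, the share called with both directions added lay near 51.5%. The split by direction did not for the 20 factors and for the formative and primed genes, where 0 were called lower. Whether these splits differ from that of all features was not tested. Of the 20 factors, 10 were called higher and 0 lower with p10 and p20 pooled, with a median difference of 0.22 (9 higher and 0 lower after quantile normalisation). They included Nr0b1, an orphan receptor that binds Pou5f1 (0.86, limma adjusted p = 3.82e-05), Dppa4, a chromatin factor of pluripotent cells (0.59, adjusted p = 5.9e-05), and Utf1, a chromatin factor and target of Pou5f1 and Sox2 (0.98, adjusted p = 0.00027). Stat3, which carries the LIF signal to the network, stood at 0.02 (adjusted p = 0.793) and was chosen for mention after its value was seen.

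Of 16 naive markers and targets of the network, 7 were called higher and 2 lower, and after quantile normalisation 3 and 3. Fbxo15, a target of Pou5f1 and Sox2, was higher under Keniry2022 by 0.56 (limma adjusted p = 4.73e-05) and Rif1, a telomere and replication factor, by 0.32 (adjusted p = 0.000192). Pecam1, an adhesion molecule of naive cells, was lower (-0.39, adjusted p = 0.000111). Of 16 genes of formative and primed cells, which follow the naive state, 9 were tested, 5 were called higher and 0 lower, on either scaling. These included the DNA methyltransferases Dnmt3b (0.78, adjusted p = 1e-04) and Dnmt3a (0.33, adjusted p = 0.00582) and the ETS factor Etv5 (0.29, adjusted p = 0.000379). The primed marker Fgf5, chosen for mention after its values were seen, had 6 to 15 reads in the libraries.

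Among 13 genes of the signals that feed the network, 11 were tested, with 3 called higher and 2 lower (2 and 3 after quantile normalisation). Ctnnb1, the effector that inhibition of GSK3 stabilises, was higher by 0.20 (limma adjusted p = 0.00039), while Jak1, the kinase of the LIF receptor (-0.17, adjusted p = 0.00638), and Gsk3b (-0.20, adjusted p = 0.0102) were lower. The 3 tested trophectoderm markers were all lower under Keniry2022: Krt18 (-1.13, adjusted p = 0.000381), Eomes (-0.40, adjusted p = 0.0162) and Tfap2c (-0.33, adjusted p = 0.0202), of which 2 passed after quantile normalisation. Across the 17 Kruppel-like factors, the 3 members included, 13 were tested, with 3 called higher and 4 lower (2 and 3 after quantile normalisation). Klf8 (0.30, adjusted p = 0.000745) was called higher and Klf10 (-0.25, adjusted p = 0.000927) lower. No primitive endoderm, two-cell-like or fibroblast marker was abundant enough to be tested.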

How the data were processed

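RNA was measured in 10 libraries of male mESCs, prepared with the TruSeq RNA kit and sequenced as 75 bp single-end reads. Per the study, reads were trimmed, aligned to mm10 with HISAT2 and quantified in SeqMonk, while the submitters' processing notes name TopHat2 2.0.12, so which aligner was used is not settled. For the annotation release, the strand setting and reads with several alignments, no choice is stated in the sources at hand. The authors deposited 1 table of log2 values, named as log CPM but holding log2 RPKM, in which 0 reads were entered as 0.9 reads. The authors' own test used edgeR and voom, which need counts, and was replaced by limma on the deposited log2 values.

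The members, the other gene lists and the comparisons were chosen with earlier results of these data known. Tests used limma 3.58.1 in R 4.3.3 (moderated test with intensity trend, two-sided, Benjamini-Hochberg adjustment over all features tested, threshold 0.05) on features with a log2 value above 0 in at least 50% of the libraries of the fit. The pooled comparison used the 8 later libraries, with method as the only term, and all others a model of 10 libraries and 5 groups. The script was tested on simulated data. Whole reads of the 10 members were recovered from the values (largest distance from a whole number 0.0186), and the exon lengths given come from that step. Named genes were all members, the 3 features most like each of the 3 most variable members (mean log2 of at least 3), and the 3 genes of each other list with the smallest p in the pooled comparison. Cdx2, Stat3 and Fgf5 were added after their values were seen, and Gm19553 and Sox2ot were named because they overlap a member. Alternatives were other normalisations, filters, a pseudocount of 1, library weights, a replicate block, passage as a term, and leaving out p0 or single libraries. Annotation came from GENCODE vM21 and promoters from RefSeq (GRCm38.p6).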

Additional observations from a re-analysis of the deposited data

Results flagged for a closer look

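In 1 of the 20 sets of 4 libraries examined (10 members, 2 methods), a single library stood far from the other 3. Esrrb under Mulas2019 had 6.5281 (log2 RPKM) in p10 replicate 2, against 6.4872 to 6.4931 in the others. Chance gives such a gap in about 1 in 20 sets, and the whole range was small, so the value is given without further weight.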

How the results depend on the processing

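Pou5f1, Zfp42 and Klf4 kept direction and call between the pooled methods in all 18 alternatives. Other calls moved with the p0 pair, the scaling, the filter or the loss of a single p10 or p20 library, and the cause was not tested. A model of all 10 libraries gave 2225 features and 3 members in the pooled comparison. Features called at p10, at p20, matched in days and against p0 under Keniry2022 numbered 608, 95, 353 and 19 with the filter at log2 above 2. With library weights they numbered 5880, 4079, 4623 and 0, with 0 for Mulas2019 against p0, 72 for the dependence on passage and 360 from p10 to p20. Without p0 they numbered 5631 at p10, 4280 at p20, 5060 matched in days and 132 from p10 to p20. For Keniry2022 against p0, 299 were called after quantile normalisation and 52 with no filter. Members called at p10 were 2 (quantile normalisation), 5 (weights), 4 (without p0) and 0 (median centring, either filter). At p20 they were 1 (quantile normalisation), 3 (weights) and 3 (without p0), and 0 for Mulas2019 against p0 with weights. The features called at p10 were 1139 after quantile normalisation, 950 after median centring and 1190 with no filter. After quantile normalisation 238 features were called at p20.

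With a replicate block, 5749 features and 5 members were called in the pooled comparison, 0 members at p10, where Klf4 had an adjusted p of 0.0505, 145 features at p20 (156 with the p20 Keniry2022 numbers exchanged) and 191 for Keniry2022 against p0. The labels do not state what the numbers share. The replicate differences of features correlated at 0.17 to 0.63 between groups, except for -0.70 to -0.12 with p20 Keniry2022, so the numbers do not pair the samples throughout. The exchanged block, chosen from that group's Y-linked reads, cost Klf2 its pooled call (adjusted p = 0.0596).

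Leaving out single libraries gave 0 to 5524 features and 0 to 4 members at p10, 1 to 4171 and 0 to 3 at p20, 0 to 4955 features matched in days and 0 to 118 from p10 to p20. Against p0 it gave 0 to 7864 features and 0 to 9 members under Keniry2022, and 2328 to 8510 and 2 to 7 under Mulas2019, the highest of each without p0 replicate 2. The high counts at p10 and p20 came without either p0 library. The pooled differences ranged from -0.0009 to 0.13 for Klf5 and -0.0014 to 0.12 for Tbx3. Against p0 under Keniry2022 they ranged from -0.49 to 0.036 for Pou5f1, -0.40 to 0.19 for Klf2 and -0.13 to 0.11 for Zfp42, and under Mulas2019 from -0.53 to 0.062 for Klf2, -0.051 to 0.14 for Klf4 and -0.038 to 1.05 for Tfcp2l1. Within-library differences ranged from -0.58 to -0.47 (Sox2 minus Pou5f1), -0.59 to -0.42 (Klf4 minus Klf2) and 0.10 to 0.19 (Nanog minus Esrrb), with an adjusted p of 0.0381 without p20 Keniry2022 replicate 2.

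Quantile normalisation turned the pooled differences of Esrrb (-0.10), Klf5 (-0.080), Tfcp2l1 (-0.062) and Tbx3 (-0.04), and at p20 those of Nanog (-0.083) and Klf2 (-0.026). Against p0 it turned Pou5f1 (0.085), Sox2 (0.13), Nanog (0.14), Klf2 (0.057) and Zfp42 (0.10) under Keniry2022 and Nanog (0.11), Klf2 (0.052) and Tbx3 (0.0997) under Mulas2019. Median centring turned Tbx3 (-0.023) under Keniry2022 and Klf4 (-0.0028) and Sox2 (-0.019) under Mulas2019.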
